A study of Mus musculus with 9 samples.

Results

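Mice that received the CSF1 receptor inhibitor PLX3397 and then the neurotoxin 3-acetylpyridine (3-AP) were compared with mice that received saline, to ask what still differed from saline in the cerebellum after both treatments. Compared were 6 of the 9 bulk RNA-seq libraries of the series, the 3 titled PLX3AP (3-AP after PLX3397) and the 3 titled control (saline). The comparison took in all 53924 rows with a gene name in the deposited tables. Of these, 16634 had enough counts to test. The remaining 3 libraries, titled 3AP, came from mice given 3-AP without PLX3397, and their values are set beside the others because they share the same control libraries. They were also part of the main fit, which held all 9 libraries. The filter on low counts, the scaling and the estimate of spread behind each p-value therefore drew on them too. The labels give the tissue as cerebellum and the treatment, and no strain, age, sex, dose or time. Mice given PLX3397 alone were not analysed here, so what PLX3397 does without 3-AP is not known from these values. Whether the libraries are from separate animals is not in the labels. The p-values reflect only how far these samples differ from one another, and part of that may be technical.

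3-AP, which resembles nicotinamide, kills the neurons of the inferior olive. Their axons are the climbing fibres of Purkinje cells, and animals given 3-AP become ataxic. Microglia, the macrophages of the brain tissue, and the macrophages that lie along vessels and meninges depend on signalling through the CSF1 receptor, which PLX3397 blocks. Chaperones of the endoplasmic reticulum (ER) fold secreted and membrane proteins, and their genes are raised together by the unfolded protein response when folding capacity falls short.

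The groups differed at few genes. A gene was called where its adjusted p in the edgeR fit was under 0.05, and called and not called refer to that fit unless another is named. EdgeR called 20 of the 16634 tested genes, or 0.120%, with 6 higher (0.0361%) and 14 lower (0.0842%) in PLX3AP than in control. The higher genes changed by 1.31- to 1.95-fold and the lower genes by 1.36- to 17.7-fold, and 10 of the 20 changed by at least 2-fold. The lower genes included ER chaperones (Hspa5, Manf, Pdia3), macrophage receptors and surface proteins (Stab1, F13a1, Cd163, Mrc1, Lyve1, Cd48, Ms4a6d), genes of the oligodendrocyte lineage (Gpr17, Neu4) and the matrix gene Tnc. The higher genes were Irf7, Etnppl, Galnt6, Rab37, Cbx7 and Tprkb. In the same fit 621 genes (3.73%) differed between PLX3AP and 3AP, and 820 (4.93%) between 3AP and control. Over all tested genes the median log2 fold change of PLX3AP against control was 0.00.

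**Figure D1:**
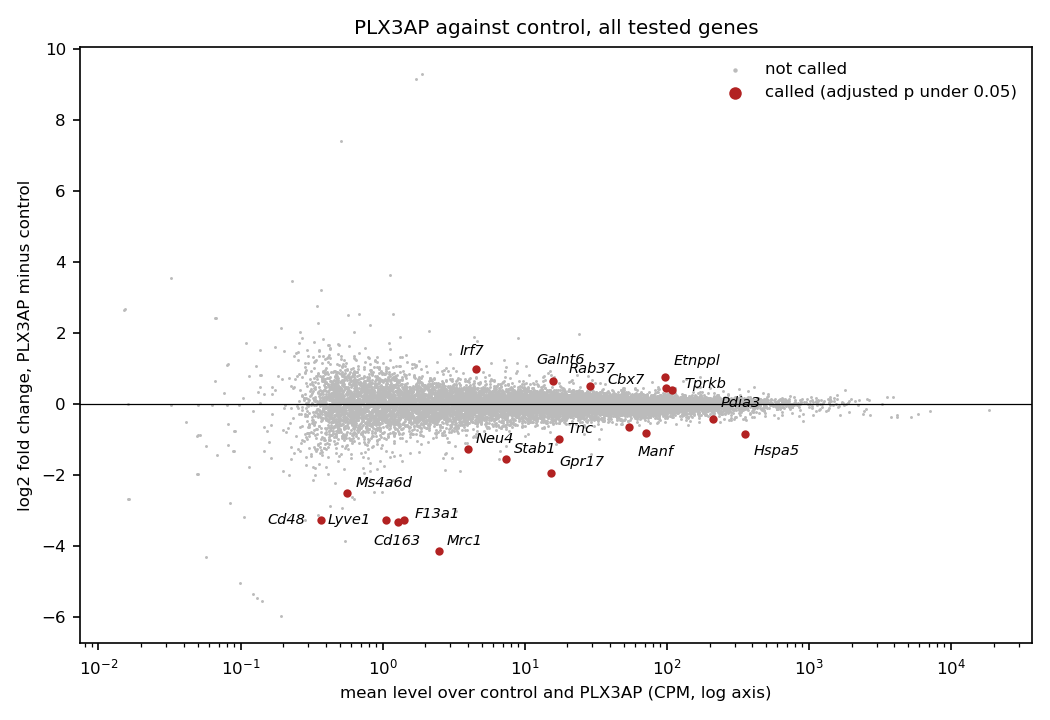
Each point is a tested gene, with its mean level over the control and PLX3AP libraries in CPM (counts scaled to library size, log axis) against its log2 fold change, PLX3AP minus control. The 20 called genes are red, 19 of them named, and 14 lie below 0.

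In each of the 20 genes the 3 PLX3AP libraries lay outside the range of the 3 control libraries, as they did on the higher side in 7.86% and on the lower side in 6.42% of all tested genes. The number of calls rested on single libraries. Leaving out control replicate 1 gave 8 calls, as did leaving out control replicate 2. There were 15 without control replicate 3, 7 without PLX3AP replicate 2, 13 without PLX3AP replicate 3 and 153 without PLX3AP replicate 1. All 20 genes remained called without PLX3AP replicate 1. Of the control libraries and of the PLX3AP libraries, 1 each stood apart from the other 2. PLX3AP replicate 1 differed from PLX3AP replicates 2 and 3 by a chi-square per degree of freedom of 27.2 and 26.2, while those 2 differed from each other by 9.37. Control replicate 3 differed from control replicates 1 and 2 by 19.1 and 17.4, against 4.68 between those 2. PLX3AP replicate 1 also had the largest share of mitochondrially encoded counts, 5.24%, against 2.86 to 4.93% in the other 5 libraries. Hspa5, Gpr17, F13a1, Manf, Stab1, Cd163 and Tnc were called whichever of the 6 libraries was left out. Library totals were 18452256 to 22358447 estimated counts. Choroid plexus genes summed to between 337 and 5390 CPM in the control libraries and between 210 and 2905 in the PLX3AP libraries, a wide range within each group.

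**Figure D2:**
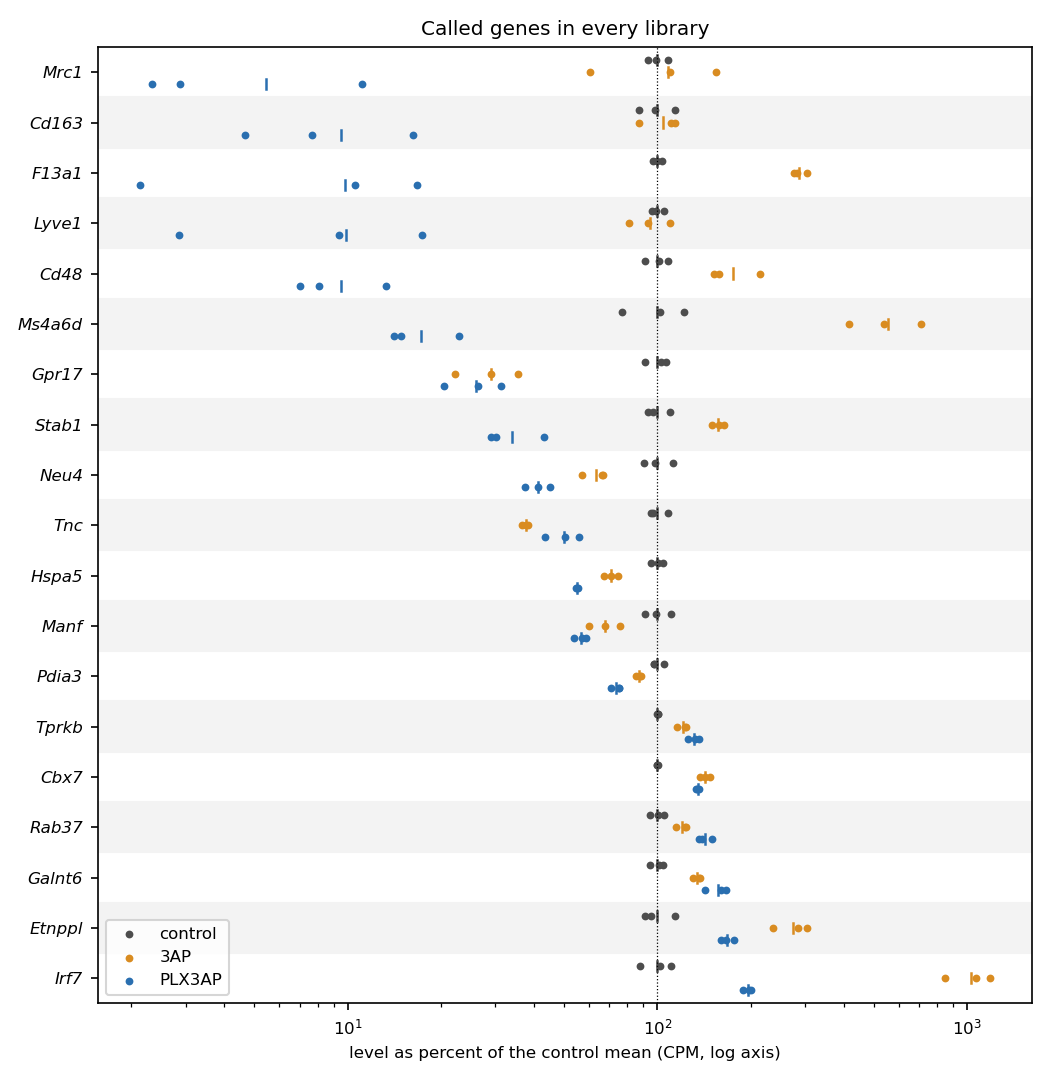
Levels of 19 of the called genes in each of the 9 libraries, as percent of the control mean of the gene (CPM, log axis), with a short line at each group mean. Blue points (PLX3AP) lie outside the grey points (control) in every row, while the orange points (3AP) lie on the far side of control for F13a1, Stab1, Cd48 and Ms4a6d.

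In PLX3AP 3 genes of protein folding in the ER fell from control, and most other members of their list had lower levels without a call. Hspa5 encodes BiP, the main ER chaperone, which also restrains the sensors of the unfolded protein response. It stood at 437, 460 and 476 CPM in the control libraries, at 340, 324 and 307 in the 3AP libraries and at 249, 252 and 253 in the PLX3AP libraries. The groups did not overlap, and the PLX3AP libraries were the lowest of the 9. Hspa5 fell 1.82-fold (log2 fold change -0.87, SE 0.07, n = 3 per group, edgeR adjusted p 0.00027), the smallest p of the comparison. It was also lower in PLX3AP than in 3AP (log2 fold change -0.36, SE 0.07, adjusted p 0.0070) and lower in 3AP than in control (-0.50, SE 0.07, adjusted p 0.00071). Manf, a small ER protein that is secreted under ER stress and protects neurons, stood at 82.4, 89.2 and 99.98 CPM in control, at 68.3, 61.3 and 54.6 in 3AP and at 53.1, 51.8 and 48.8 in PLX3AP. It fell 1.77-fold from control (log2 fold change -0.82, SE 0.10, adjusted p 0.0038), and its difference from 3AP did not pass (-0.26, SE 0.10, adjusted p 0.25). Pdia3, a disulfide isomerase that works with the lectin chaperones calnexin and calreticulin, was at 236, 236 and 255 CPM in control and at 182, 182 and 171 in PLX3AP (log2 fold change -0.44, SE 0.07, adjusted p 0.020). Its 3AP libraries, at 212, 214 and 207 CPM, lay between the other groups. The call of Pdia3 was lost without control replicates 1, 2 or 3 (0.073, 0.088 and 0.061) or PLX3AP replicates 2 or 3 (0.12 and 0.12). EdgeR also did not call Pdia3 with the 6 libraries alone (0.075) or with the replicate number as a block (0.13). Limma-trend did not call it on log2(TPM + 1) (0.11) or log2(TPM + 0.1) (0.093).

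Across the list of ER chaperones and the unfolded protein response, 18 of 18 genes were tested, 3 were called lower and 0 higher. The PLX3AP libraries lay below all control libraries in 14 of the 18, against 6.42% of all tested genes. An unadjusted p under 0.05 with a lower level was found in 14, against 4.77% of all tested genes. The median log2 fold change was -0.40, beside 0.00 over all tested genes. Summed over the list, levels were 2724 to 2975 CPM in control, 2448 to 2584 in 3AP and 2140 to 2211 in PLX3AP, with no overlap between any 2 groups. DESeq2 called 9 of the genes lower, edgeR 5 without PLX3AP replicate 1, and limma-voom 3. On the authors' TPM scale, which accounts for transcript length, Hspa5 (293 ± 7.73 TPM in control, mean ± SD, n = 3) and Manf (254 ± 22.3) were expressed above Pdia3 (149 ± 0.84), and in PLX3AP they were at 163 ± 11.7, 141 ± 6.59 and 114 ± 2.55 TPM.

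**Figure D3:**
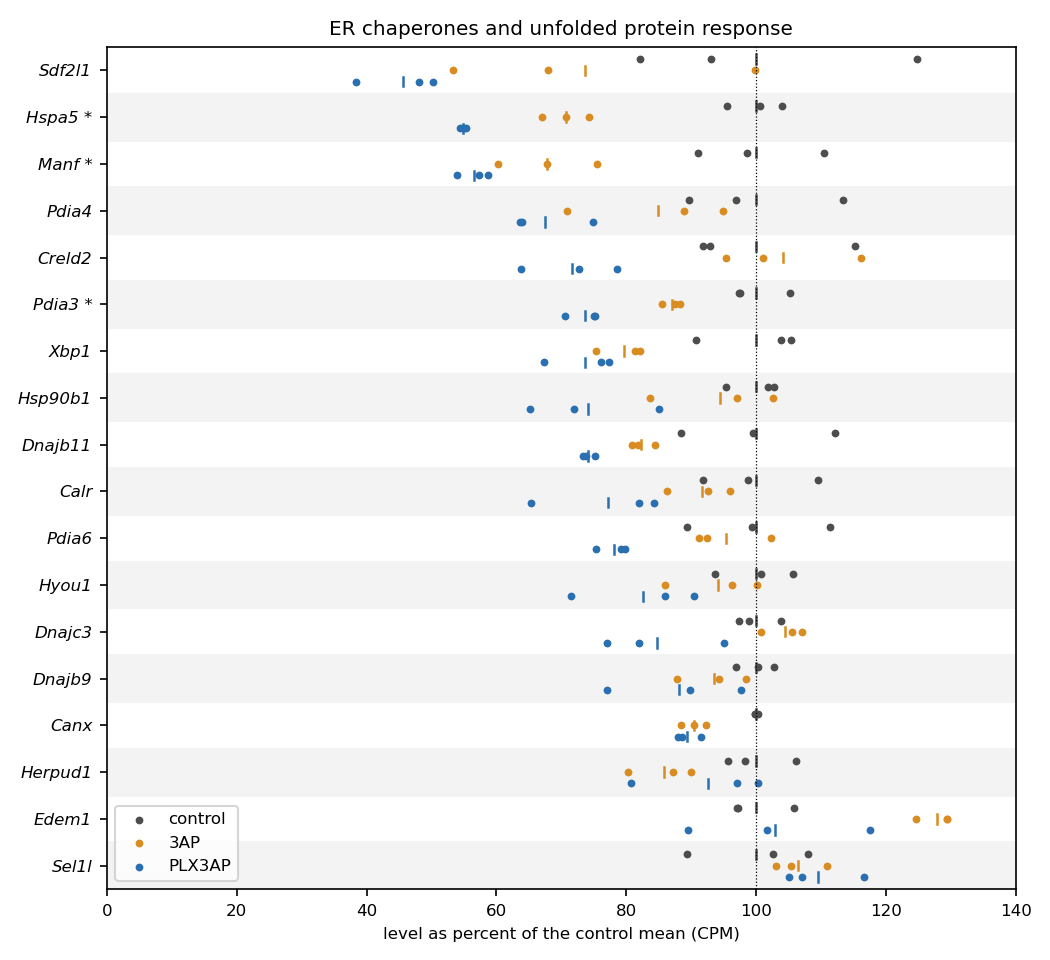
Levels of the 18 tested genes of the ER chaperone list in each library, as percent of the control mean (CPM), ordered by log2 fold change, with a short line at each group mean and an asterisk at called genes. In PLX3AP the group means of Hspa5 and Manf lie at 54.9% and 56.6% of control, and those of Sel1l and Edem1 lie above 100%.

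Other members did not pass in edgeR. Sdf2l1, a partner of BiP, was at 22.7 ± 5.04 CPM in control and 10.4 ± 1.44 in PLX3AP (adjusted p 0.17). Xbp1, a transcription factor of the unfolded protein response, was at 133, 152 and 154 CPM in control and at 98.5, 113 and 111 in PLX3AP (log2 fold change -0.44, SE 0.08, adjusted p 0.084). Dnajb11, a co-chaperone of BiP, was at 71.3 ± 8.44 and 52.8 ± 0.66 CPM (adjusted p 0.10), and Hsp90b1, the ER member of the HSP90 family, at 343 ± 13.7 and 254 ± 34.7 CPM (adjusted p 0.20). The lectin chaperones Calr, at 399 ± 35.7 and 308 ± 41.5 CPM (adjusted p 0.28), and Canx, at 363 ± 0.805 and 324 ± 6.89 CPM (adjusted p 0.44), were also below control without a call. Herpud1 and Sel1l, which belong to the machinery that removes misfolded proteins, overlapped between the groups, at 104 ± 5.65 and 96.5 ± 11.0 CPM and at 169 ± 16.1 and 185 ± 10.5 CPM. DESeq2 called Sdf2l1 (0.00046), Xbp1 (0.00092), Dnajb11 (0.0049) and Hsp90b1 (0.013), and edgeR called Xbp1 (0.049) and Hsp90b1 (0.032) without PLX3AP replicate 1. Of these genes, Calr and Canx were named by their counts, and the others after their values were seen.

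Promoters of this list often carried the ER stress response element, the sequence to which the transcription factors NF-Y and ATF6 bind in chaperone genes. The pattern, CCAAT followed by 9 bases of any kind and CCACG, was searched on both strands of the 250 bases before the start site in the RefSeq promoter table (GRCm38.p6), a search chosen after the values were seen. It occurred in 7 of the 16 list genes with an entry (43.75%), against 0.1295% of all 27025 genes with an entry. Among the 12139 of these that were tested it occurred in 0.1565%. Counted by promoter, the share was 0.113% of the 32851 in the table. The 7 genes were Hspa5, Hsp90b1, Pdia6, Calr, Canx, Dnajc3 and Creld2. Of these Hspa5 was called. Pdia3, also called, had an entry without a match. Manf, the other called gene of the list, and Hyou1 had no entry. The match of Hspa5, the gene with the smallest p, and those of 4 other members follow, with the pattern in capitals and 20 bases on each side. Bases run 5′ to 3′ on the strand of the gene, and the reverse complement of the pattern begins with CGTGG.
Hspa5 (chr2:34772005-34772063, plus strand): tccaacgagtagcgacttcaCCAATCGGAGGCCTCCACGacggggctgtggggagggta
Pdia6 (chr12:17266471-17266529, plus strand): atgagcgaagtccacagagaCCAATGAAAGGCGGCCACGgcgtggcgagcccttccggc
Creld2 (chr15:88819500-88819558, plus strand): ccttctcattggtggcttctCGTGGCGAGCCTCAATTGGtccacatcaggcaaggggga
Calr (chr8:84847055-84847113, minus strand): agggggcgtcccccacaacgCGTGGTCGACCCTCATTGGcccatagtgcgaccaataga
Hsp90b1 (chr10:86705513-86705676, minus strand): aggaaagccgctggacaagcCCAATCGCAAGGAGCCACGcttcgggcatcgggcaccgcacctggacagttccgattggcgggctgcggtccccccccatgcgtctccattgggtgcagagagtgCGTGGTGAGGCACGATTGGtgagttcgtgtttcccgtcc
The Hspa5, Pdia6 and first Hsp90b1 matches are in the forward orientation, and those of Creld2, Calr and the second of Hsp90b1 in reverse. The Hspa5 window spans the bases 85 to 27 before the start site. A match is a description of the sequence and not a measured binding site. The share in the list follows from which genes it holds and does not draw on their levels in any library.

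Heat shock proteins of the cytosol and mitochondria, which fold proteins outside the ER, had a median log2 fold change of -0.29. EdgeR called 0 of the 15 tested genes. The PLX3AP libraries lay below all control libraries in 10, against 6.42% of all tested genes. An unadjusted p under 0.05 with a lower level was found in 9, against 4.77% of all tested genes. DESeq2 called 3 lower and limma-voom 0, and edgeR called 1 lower without PLX3AP replicate 1. The member with the most counts, Hspa8, the constitutive HSP70 of the cytosol, was at 2628 ± 35.7 CPM in control and 2286 ± 169 in PLX3AP (adjusted p 0.46). Hsp90ab1 overlapped between the groups, at 1446 ± 28.1 and 1330.3 ± 126 CPM (adjusted p 0.66). Hsph1, a nucleotide exchange factor for HSP70 named after its values were seen, was at 187, 207 and 182 CPM in control, 137, 129 and 147 in 3AP and 140, 152 and 144 in PLX3AP (log2 fold change -0.40, SE 0.08, adjusted p 0.090). Summed over the list, levels were 6340 to 6619 CPM in control, 5104 to 5455 in 3AP and 5308 to 5699 in PLX3AP, so both treated groups lay below control and overlapped each other.

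Markers of border-associated macrophages, which line the vessels, meninges and choroid plexus, showed the largest folds among the calls. In bulk tissue a lower level can mean fewer cells of a type or less RNA per cell, and these cannot be told apart. Mrc1, the mannose receptor, was at 4.67, 5.08 and 4.39 CPM in control, 2.85, 5.16 and 7.27 in 3AP and 0.110, 0.136 and 0.525 in PLX3AP. The 3AP libraries spanned the control values, and the PLX3AP libraries lay far below both groups. Mrc1 fell 17.7-fold from control (log2 fold change -4.15, SE 0.49, adjusted p 0.0056), a call lost without PLX3AP replicate 2 (0.064) and on log2(TPM + 1) (0.057). Cd163, the scavenger receptor for haemoglobin bound to haptoglobin, was at 2.31, 2.05 and 2.68 CPM in control and at 0.110, 0.181 and 0.382 in PLX3AP (10.1-fold lower, log2 fold change -3.33, SE 0.39, adjusted p 0.0038), and was not called on log2(TPM + 1) (0.057). F13a1, the A subunit of coagulation factor XIII, was at 2.65, 2.57 and 2.49 CPM in control, 7.80, 7.06 and 7.23 in 3AP and 0.0549, 0.271 and 0.430 in PLX3AP (9.71-fold lower than control, log2 fold change -3.28, SE 0.36, adjusted p 0.0035). Its 3AP libraries were the highest of the 9 and its PLX3AP libraries the lowest. Lyve1, a hyaluronan receptor, was at 2.01, 1.9 and 1.85 CPM in control and at 0.0549, 0.181 and 0.334 in PLX3AP (9.62-fold lower, log2 fold change -3.27, SE 0.43, adjusted p 0.010). The Lyve1 call did not survive leaving out control replicates 1 or 2 (0.052 and 0.055) or PLX3AP replicate 2 (0.092), and was not made on log2(TPM + 1) (0.072).

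Stab1, a scavenger receptor of macrophages and sinusoidal endothelium, retained more of its control level than the 4 genes above. It was at 10.7, 10.2 and 12.1 CPM in control, 17.4, 18.0 and 16.4 in 3AP and 3.19, 3.30 and 4.72 in PLX3AP (2.93-fold lower than control, log2 fold change -1.55, SE 0.16, adjusted p 0.0021). From the authors' TPM it was not called (adjusted p 0.50 and 0.52 with 2 pseudocounts): control replicates stood at 5.96, 4.57 and 10.4 TPM and PLX3AP replicates at 1.73, 1.25 and 4.64 TPM. Replicate 3 was the highest in both groups. Of 14 genes of the list, 11 passed the filter on low counts and 5 were called, all of them lower. The PLX3AP libraries lay below control in 10 of the 11, against 6.42% of all tested genes, and the median log2 fold change was -2.93. Without PLX3AP replicate 2 the number called was 3, and on log2(TPM + 1) it was 2. DESeq2 and edgeR without the filter on low counts each called 8, all lower, and limma-voom 5. Over the whole list the summed level was 27.0 to 31.7 CPM in control, 48.6 to 53.1 in 3AP and 4.83 to 8.30 in PLX3AP. Members that edgeR did not call included Pf4, a chemokine, at 0.912 ± 0.175 and 0.115 ± 0.073 CPM (adjusted p 0.071), and Cbr2, a carbonyl reductase, at 1.48 ± 0.574 and 0.253 ± 0.125 CPM (adjusted p 0.076). DESeq2 called both (0.021 and 0.0026), and Pf4 was also called on log2(TPM + 1) (0.044).

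2 further surface proteins of myeloid cells outside the list were called, and are named after their values were seen. Cd48, a receptor of the SLAM family on leukocytes, was at 0.688, 0.616 and 0.731 CPM in control and at 0.0549, 0.0904 and 0.0477 in PLX3AP, which is 41 and 4 estimated counts over 3 libraries each (log2 fold change -3.26, SE 0.52, adjusted p 0.038). Ms4a6d, a membrane protein of the MS4A family, was at 0.737, 0.976 and 1.17 CPM in control, 6.82, 5.16 and 3.98 in 3AP and 0.22, 0.136 and 0.143 in PLX3AP (log2 fold change -2.51, SE 0.41, adjusted p 0.042). Estimated counts divide reads between this gene and the similar Ms4a6b and Ms4a6c, so the level of each is less certain. Both calls rest on few counts, 58 over the control libraries for Ms4a6d, and both were lost when any library other than PLX3AP replicate 1 was left out (Cd48 0.12 to 0.17, Ms4a6d 0.071 to 0.22). Ms4a4a, Clec4a1 and Msr1, also chosen after their values were seen, had 23, 17 and 12 counts in control, all 3 libraries added, and 0 in PLX3AP. Taking 3 counts per group as the floor, they were at least 7.79-, 5.76- and 4.06-fold lower, with edgeR adjusted p of 0.19, 0.10 and 0.19. Without the filter on low counts edgeR called all 3 (0.015, 0.011 and 0.036). DESeq2 and limma-voom called Clec4a1 (0.038 and 0.046).

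Csf1r, the receptor that PLX3397 inhibits, was lower in each PLX3AP library than in any control library but was not called. It stood at 34.7, 32.0 and 34.1 CPM in control, at 60.8, 51.3 and 51.0 in 3AP and at 13.2, 17.4 and 24.9 in PLX3AP (log2 fold change -0.86, SE 0.18, adjusted p 0.19). The PLX3AP libraries were spread more widely than the control libraries. EdgeR called it without PLX3AP replicate 1 (0.049) or without PLX3AP replicate 3 (0.0058), and DESeq2 called it with all libraries (0.00097). Its 2 ligands were measured too. Csf1 was at 19.6 ± 2.04 CPM in control and 24.9 ± 0.866 in PLX3AP (log2 fold change 0.35, SE 0.11, adjusted p 0.34), and Il34 at 10.3 ± 1.79 and 9.97 ± 0.934 CPM (adjusted p 0.96). Kit and Flt3, receptors that PLX3397 also inhibits, overlapped between the groups, Kit at 201 ± 22.4 and 223 ± 21.9 CPM and Flt3 at 43.1 ± 4.49 and 44.7 ± 3.58. In the whole list of the receptor, these kinases and their ligands, edgeR and limma-voom called 0 of 9 genes and DESeq2 called 1. An unadjusted p under 0.05 was found in 3, against 9.35% of all tested genes.

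Markers of homeostatic microglia had a median log2 fold change of -0.65, against -2.93 for the border-associated macrophages, and edgeR called 0 of the 24. The PLX3AP libraries lay below all control libraries in 12, against 6.42% of all tested genes. At an unadjusted p under 0.05 there were 14 with a lower level, against 4.77% of all tested genes. DESeq2 called 5 lower and limma-voom 0, and edgeR called 3 without PLX3AP replicate 1 and 3 without PLX3AP replicate 3. P2ry12, a purinergic receptor that guides microglial processes, was at 11.4, 8.17 and 9.21 CPM in control, 6.97, 5.06 and 8.78 in 3AP and 3.79, 2.53 and 5.11 in PLX3AP (log2 fold change -1.34, SE 0.26, adjusted p 0.11). Tmem119, a membrane protein specific to microglia in the brain, was at 7.37, 8.06 and 9.70 CPM in control, 18.6, 13 and 13.1 in 3AP and 4.12, 4.88 and 6.59 in PLX3AP (log2 fold change -0.69, SE 0.20, adjusted p 0.32). Cx3cr1, the fractalkine receptor, was at 13.3, 12.2 and 11.3 CPM in control and at 6.15, 6.73 and 10.6 in PLX3AP (log2 fold change -0.64, SE 0.21, adjusted p 0.37). For all 3 the PLX3AP libraries lay below control without overlap, and for Tmem119 and Cx3cr1 (33.0, 22.4 and 24.3 CPM) the 3AP libraries lay above it. DESeq2 called P2ry12 (0.00085).

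Selplg, a selectin ligand, was at 10.3 ± 2.08 and 4.53 ± 1.48 CPM (adjusted p 0.082), and Ctss, the lysosomal protease cathepsin S, at 32.7 ± 2.28 and 20.7 ± 3.92 CPM (adjusted p 0.082). DESeq2 called both (0.00023 and 0.00075), and so did edgeR without PLX3AP replicate 1 (0.045 and 0.049) or without PLX3AP replicate 3 (0.025 and 0.014). Trem2, a lipid receptor, overlapped between the groups (4.21 ± 0.669 and 3.62 ± 0.969 CPM), as did Siglech and Fcrls. Selplg, Trem2, Siglech and Fcrls are named after their values were seen. Summed over the list, levels were 1324 to 1391 CPM in control and 1193 to 1540 in PLX3AP, sums in which Sparc, also made by astrocytes and vessels, took 1054 ± 26.5 and 1185 ± 156 CPM. The pattern GAGGAAGT, a site for the myeloid factor PU.1, was searched on both strands of the 250 bases before the start site. It was found in 0 of 17 list genes with an entry, in 2.79% of all genes with an entry and in 2.44% of all promoters.

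**Figure D4:**
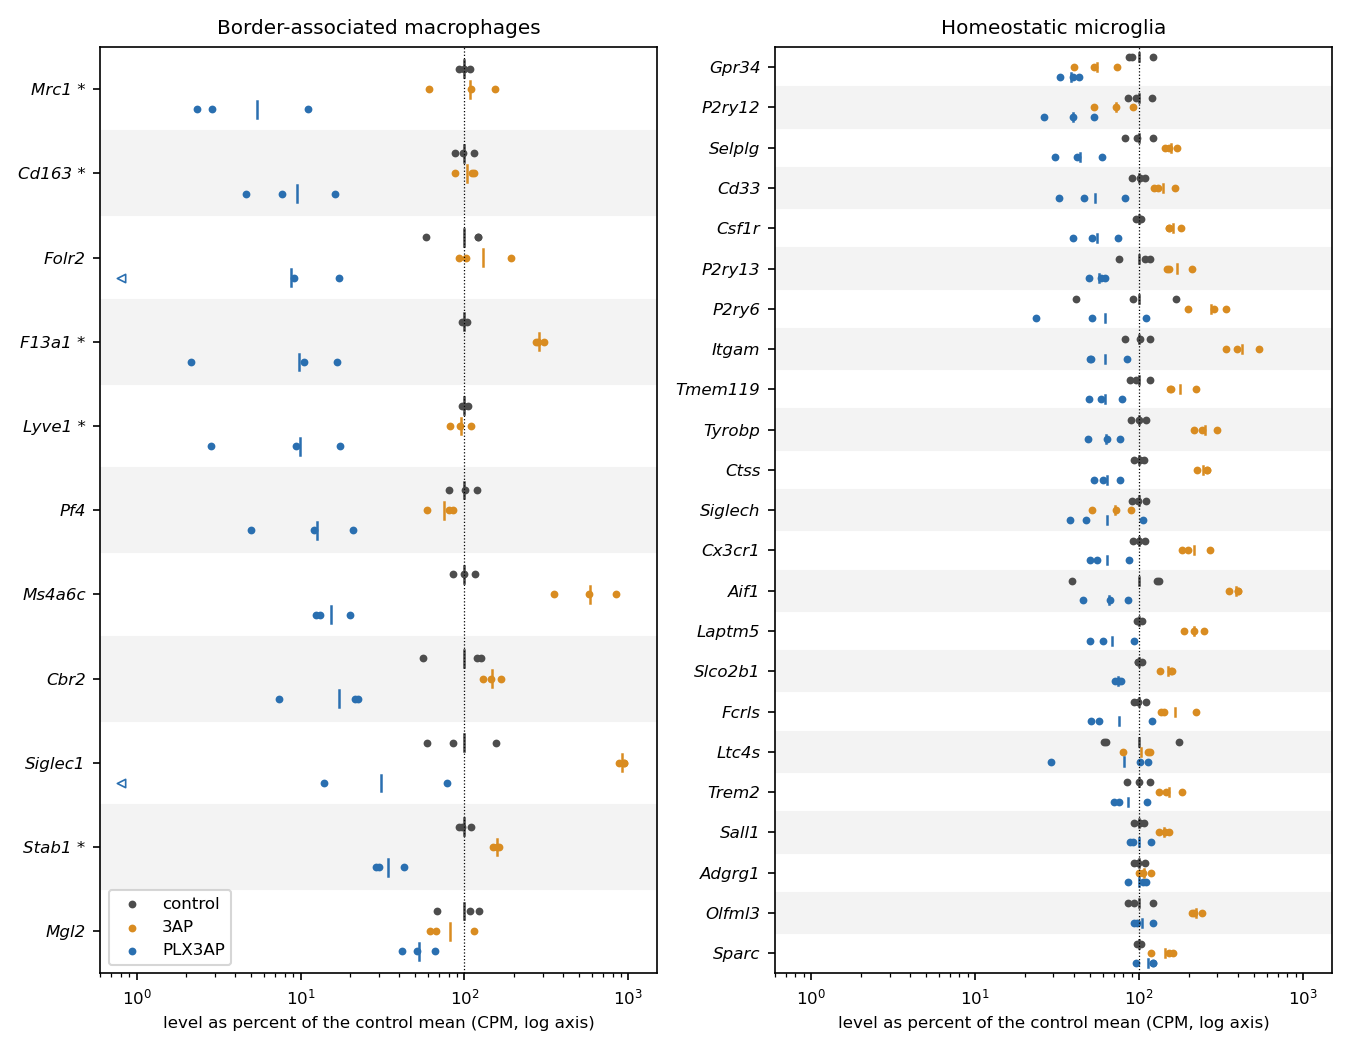
Levels of the 11 tested markers of border-associated macrophages (left) and 23 of those of homeostatic microglia (right) in each library, as percent of the control mean (CPM, log axis), with a short line at each group mean, an asterisk at called genes and an open triangle for a library at 0. The PLX3AP means of Mrc1, Cd163, F13a1 and Lyve1 lie at 5.45 to 9.88% of control, and that of Csf1r at 54.9%.

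In class II antigen presentation, through which macrophages and dendritic cells show peptides to T cells, edgeR called 0 of 9 tested genes, with a median log2 fold change of -1.39. Its 6 genes with an unadjusted p under 0.05 were all lower, DESeq2 called 3 lower and limma-voom 0, and edgeR called 1 without PLX3AP replicate 1 and 1 without PLX3AP replicate 3. Cd74, the invariant chain, was at 3.19, 4.62 and 8.87 CPM in control and at 0.549, 1.36 and 2.53 in PLX3AP (adjusted p 0.30), and the class II chain H2-Aa, named after its values were seen, at 1.28, 1.54 and 3.02 and at 0.275, 0.542 and 0.477 CPM (adjusted p 0.10). Both were among the DESeq2 calls (0.0072 and 0.011). In phagocytosis and Fc receptors 0 of 23 were called (median -0.45, also with Msr1 at its bound), 8 were lower and 2 higher at an unadjusted p under 0.05, DESeq2 called 1 lower and limma-voom 0. Fcgr3, an activating receptor for antibodies chosen after its values were seen, was at 5.65, 5.19 and 6.92 CPM in control, 21.6, 17.6 and 17.8 in 3AP and 2.42, 3.12 and 3.77 in PLX3AP (log2 fold change -0.93, SE 0.19, adjusted p 0.11), and was the DESeq2 call of this list (0.0059). In complement 0 of 19 were called (median -0.32), and 5 were lower and 1 higher at an unadjusted p under 0.05. DESeq2 called 1 lower and limma-voom 0, and edgeR called 1 lower without PLX3AP replicate 1. Over all tested genes an unadjusted p under 0.05 was found with a lower level in 4.77% and with a higher level in 4.59%.

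Genes of disease-associated microglia, a state described around plaques and dying neurons, lay on both sides of control. EdgeR called 0 of 23 tested genes, with a median of 0.12. DESeq2 called 1 higher and 1 lower, and limma-voom 0. At an unadjusted p under 0.05 there were 5 higher and 2 lower, against 4.59% and 4.77% of all tested genes. Lyz2, lysozyme, was at 8.99, 9.19 and 11.4 CPM in control, 43.8, 48.6 and 24.5 in 3AP and 3.24, 3.21 and 3.63 in PLX3AP (log2 fold change -1.55, SE 0.25, adjusted p 0.070). It was called by DESeq2 (2.7e-07) and by edgeR with the 6 libraries alone (0.0067). Gpnmb, a membrane glycoprotein of lysosome-rich macrophages, was at 1.57, 2.31 and 1.66 CPM in control, 10.3, 9.25 and 6.06 in 3AP and 2.86, 3.66 and 4.25 in PLX3AP (log2 fold change 0.96, SE 0.26, adjusted p 0.28). Cst7, a cystatin, had 2 counts in control and 26 in PLX3AP. These genes lay on opposite sides of control, Lyz2 below and Gpnmb and Cst7 above, and were named after their values were seen. The members with the most counts, Apoe and Ctsb, overlapped between the groups. Of 21 markers of blood leukocytes 10 could be tested and 0 were called by edgeR, DESeq2 or limma-voom, with 1 higher and 1 lower at an unadjusted p under 0.05. Their sum was 4.86 to 6.93 CPM in control, 22.8 to 43.3 in 3AP and 4.61 to 5.24 in PLX3AP. The filter on low counts drew on all 9 libraries. At such low sums in control and PLX3AP, the lack of calls for these markers says little.

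Genes of the type I interferon response, the antiviral programme, were the list with the most members above control. Irf7, the transcription factor that amplifies the response, was at 2.70, 3.13 and 3.41 CPM in control, 36.4, 32.9 and 26.1 in 3AP and 5.82, 6.10 and 6.16 in PLX3AP. The 3 groups did not overlap, and PLX3AP lay much nearer to control than to 3AP. Irf7 rose 1.95-fold from control (log2 fold change 0.97, SE 0.16, adjusted p 0.043) and was lower in PLX3AP than in 3AP (log2 fold change -2.40, SE 0.14, adjusted p 8.9e-06). The call against control was lost when any library other than PLX3AP replicate 1 was left out (0.090 to 0.20), with limma-voom (0.25) and with the 6 libraries alone (0.12). Irf7 overlaps Phrf1 on the opposite strand, and counting by strand is not stated in the sources. Of 31 tested genes of the list, 1 was called. The PLX3AP libraries lay above control without overlap in 17 and below in 1, against 7.86% and 6.42% of all tested genes. An unadjusted p under 0.05 with a higher level was found in 18, against 4.59% of all tested genes. The median log2 fold change was 0.53. DESeq2 called 4 higher and limma-voom 0. Summed levels were 210 to 222 CPM in control, 550 to 627 in 3AP and 252 to 296 in PLX3AP.

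Among the members that edgeR did not call, Isg15, a ubiquitin-like modifier, was at 1.82, 1.69 and 1.85 CPM in control, 12.9, 11.7 and 9.80 in 3AP and 3.95, 2.94 and 3.39 in PLX3AP (log2 fold change 0.93, SE 0.19, adjusted p 0.12). Ifit3, which binds viral RNA complexes, was at 17.0, 16.9 and 18.1 CPM in control, 60.7, 58.7 and 58.9 in 3AP and 29.5, 27.9 and 21.3 in PLX3AP (log2 fold change 0.59, SE 0.11, adjusted p 0.090). DESeq2 called both (0.040 and 0.0019), and edgeR called Ifit3 without PLX3AP replicate 3 (0.0088). Both genes, named after their values were seen, lay between control and 3AP without overlap. Stat2, a transducer of the interferon signal, was at 56.1 CPM in control and 64.5 in PLX3AP on average (adjusted p 0.39). Class I antigen presentation genes, which interferon raises, had a median of 0.30. EdgeR, DESeq2 and limma-voom called 0 of 15. An unadjusted p under 0.05 was found in 4, all higher, against 4.59% of all tested genes on the higher side. B2m, beta-2 microglobulin, was at 78.1, 82.9 and 94.1 CPM in control, 245, 221 and 210 in 3AP and 102, 95.9 and 116 in PLX3AP (log2 fold change 0.30, SE 0.10, adjusted p 0.35).

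The interferon-stimulated response element, bound by IRF factors, was searched with the pattern GAAA, 2 bases of any kind and GAAA, on both strands of the same 250 bases. It occurred in 10 of the 22 list genes with an entry (45.45%), against 3.46% of all genes with an entry and 2.98% of all promoters. Among tested genes with an entry it occurred in 3.12%. The share in this list, too, does not draw on levels in any library. Of the called genes with an entry, only Tprkb held it. Irf7, the called gene of the list, had an entry without a match. Windows of Isg15, Ifit1 and Oas1a are shown as examples of the 10. Matches are in capitals, and matches that overlap run together.
Isg15 (chr4:156200855-156200916, minus strand): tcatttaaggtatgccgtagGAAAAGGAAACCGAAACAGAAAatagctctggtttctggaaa
Ifit1 (chr19:34640765-34640833, plus strand): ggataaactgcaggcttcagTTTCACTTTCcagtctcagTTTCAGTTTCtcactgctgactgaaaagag
Oas1a (chr5:120907526-120907565, minus strand): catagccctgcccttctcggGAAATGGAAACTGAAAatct
Isg15 holds 3 overlapping matches and Oas1a 2, all in the forward orientation, and Ifit1 holds 2 in reverse. Ifit1, an RNA-binding protein, was at 3.41 ± 0.868 CPM in control and 5.64 ± 1.32 in PLX3AP (adjusted p 0.30), and Oas1a, which makes 2',5'-oligoadenylates, at 0.465 ± 0.0635 and 1.15 ± 0.0619 CPM (adjusted p 0.30).

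In the oligodendrocyte lineage, 2 genes of the stages before myelination fell. Gpr17, a receptor of precursors that have begun to differentiate, was at 22.3, 26.0 and 25.0 CPM in control, 8.69, 7.11 and 5.43 in 3AP and 6.43, 5.02 and 7.64 in PLX3AP. Both treated groups lay far below control and overlapped each other. Gpr17 fell 3.84-fold from control (log2 fold change -1.94, SE 0.18, adjusted p 0.0011), and its difference between PLX3AP and 3AP did not pass (-0.16, SE 0.19, adjusted p 0.82). Neu4, a sialidase, was at 6.29, 5.50 and 5.07 CPM in control, 3.73, 3.75 and 3.20 in 3AP and 2.53, 2.30 and 2.10 in PLX3AP (2.43-fold lower than control, log2 fold change -1.28, SE 0.19, adjusted p 0.020). The Neu4 call was lost without control replicates 1 or 2 (0.11 and 0.098) or PLX3AP replicates 2 or 3 (0.13 and 0.12), and on the authors' TPM scale (0.22 with either pseudocount), so that the list then held 1 call. Of the 20 genes of the list, these 2 were called lower and 0 higher, and the median log2 fold change was -0.23. The PLX3AP libraries of 8 lay wholly below control and those of 1 wholly above, against 6.42% and 7.86% of all tested genes. DESeq2 called 3 lower, Vcan (0.0095) among them, and limma-voom 2. Pdgfra, the growth factor receptor of early precursors, was at 23.4 ± 1.23 and 18.1 ± 1.81 CPM (adjusted p 0.34), and Vcan, a matrix proteoglycan, at 24.8 ± 2.66 and 16.6 ± 2.38 CPM (log2 fold change -0.58, adjusted p 0.12, or 0.032 without PLX3AP replicate 1). On the TPM scale Vcan was not lower (4.62 ± 1.18 in control and 4.89 ± 0.866 TPM in PLX3AP). Both were named after their values were seen. The members with the most counts, Bcas1 and Cspg5, were at 185 and 197 CPM and at 91.9 ± 1.06 and 98.6 ± 7.85 CPM.

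Genes of mature myelin were not called. EdgeR, DESeq2 and limma-voom called 0 of 20, with a median of 0.02. At an unadjusted p under 0.05 there were 4 higher and 1 lower, against 4.59% and 4.77% of all tested genes. Mbp, myelin basic protein, was at 3666 ± 529 CPM in control and 4147 ± 375 in PLX3AP (log2 fold change 0.18, SE 0.11, adjusted p 0.64).

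Astrocyte and matrix genes differed at single members. Tnc, tenascin C, a matrix glycoprotein of astrocytes and Bergmann glia, was at 25.1, 22.1 and 22.4 CPM in control, 8.49, 8.72 and 8.87 in 3AP and 11.7, 10.1 and 12.9 in PLX3AP. PLX3AP lay between the other groups and nearer to 3AP. Tnc fell 2.01-fold from control (log2 fold change -1.0, SE 0.12, adjusted p 0.0038), and the difference from 3AP did not pass (0.41, SE 0.12, adjusted p 0.10). On the TPM scale it was not called (adjusted p 0.11 and 0.12), although TPM were 6.57 ± 0.644 in control and 3.38 ± 0.553 in PLX3AP. Of 14 tested genes of the perineuronal matrix (median -0.17) edgeR and limma-voom called Tnc alone, DESeq2 2 lower and edgeR without PLX3AP replicate 1 also 2 lower, and on the TPM scale 0 were called. Etnppl, an astrocyte enzyme that breaks down phosphoethanolamine, rose. It was at 69.4, 66.2 and 82.8 CPM in control, 221, 207 and 172 in 3AP and 117, 129 and 121 in PLX3AP (1.68-fold higher than control, log2 fold change 0.75, SE 0.11, adjusted p 0.017). It was also lower in PLX3AP than in 3AP (log2 fold change -0.71, SE 0.10, adjusted p 0.0014). Against control the call was lost without control replicates 1 or 2 (0.11 and 0.12) or PLX3AP replicates 2 or 3 (0.12 and 0.081).

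EdgeR called 0 of 23 genes of astrocytes and Bergmann glia and 0 of 27 of reactive astrocytes. At an unadjusted p under 0.05 there were 2 lower in the first list, and 2 higher and 3 lower in the second. The PLX3AP libraries lay wholly above control in 1 gene of the first list and wholly below in 2. In the second list they lay wholly above in 7, Gfap among them, and wholly below in 2. Over all tested genes these shares were 7.86% and 6.42%, and at an unadjusted p under 0.05 they were 4.59% higher and 4.77% lower. DESeq2 called 1 lower in the first and 1 higher in the second, and limma-voom 1 lower in the first and 0 in the second. Fabp7, a lipid carrier of Bergmann glia and radial glia named after its values were seen, was at 47.4, 41.6 and 38.0 CPM in control, 12.8, 12.5 and 18.9 in 3AP and 20.9, 16 and 11.2 in PLX3AP. Its log2 fold change was -1.40 (SE 0.22, adjusted p 0.070), and edgeR called it without PLX3AP replicate 1 (0.022). With all libraries Fabp7 was called by DESeq2 (3.3e-08) and limma-voom (0.026). Gfap, the filament protein of reactive astrocytes, was at 203, 216 and 243 CPM in control, 1123, 755 and 456 in 3AP and 247, 293 and 302 in PLX3AP (log2 fold change 0.35, SE 0.29, adjusted p 0.73). Lcn2, an iron carrier that reactive astrocytes secrete, was at 0.564 ± 0.247 CPM in control, 89.6 ± 33.1 in 3AP and 0.438 ± 0.048 in PLX3AP (adjusted p 0.91 against control). The PLX3AP libraries of Lcn2 lay within the control range and far below every 3AP library.

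EdgeR, DESeq2 and limma-voom called 0 of 25 Purkinje cell genes and 0 of 20 granule cell genes, with medians of 0.01 and -0.07. Without PLX3AP replicate 1 edgeR called 1 granule gene lower, Gabra6 (log2 fold change -0.51, adjusted p 0.043), named after its values were seen. At an unadjusted p under 0.05 there was 1 higher among the Purkinje genes and there were 2 lower among the granule genes. Over all tested genes these shares were 4.59% higher and 4.77% lower. The PLX3AP libraries lay wholly above control in 1 Purkinje and 2 granule genes, and wholly below in 3 of each list. Over all tested genes they did so in 7.86% and 6.42%. Pcp2, a G protein modulator of Purkinje cells, was at 432 ± 45.3 CPM in control and 475 ± 31.8 in PLX3AP (log2 fold change 0.14, SE 0.10, adjusted p 0.69). Calb1, the calcium buffer calbindin, had 1254 ± 101 CPM in control and 1108.5 ± 141 in PLX3AP (log2 fold change -0.18, SE 0.10, adjusted p 0.58). Itpr1, the calcium release channel of Purkinje cells, was at 3289.7 and 3771 CPM on average (adjusted p 0.67). Eomes, a transcription factor of unipolar brush cells named after its values were seen, was at 41.1, 55.2 and 37.2 CPM in control, 30.2, 27.8 and 16.9 in 3AP and 21.8, 22.7 and 22.3 in PLX3AP (log2 fold change -1.0, SE 0.21, adjusted p 0.18). It was called by DESeq2 (0.00031), as the 1 call among 17 genes of interneurons and unipolar brush cells, and by edgeR with the 6 libraries alone (0.040).

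Genes of the hindbrain outside the cerebellum had higher levels in PLX3AP, without a call. Of 18 genes 6 could be tested, with a median of 1.09, and 4 lay above control without overlap, as 7.86% of all tested genes did. EdgeR and limma-voom called 0 and DESeq2 called 1. At an unadjusted p under 0.05 there were 2 higher, against 4.59% of all tested genes. Th, tyrosine hydroxylase, which is found in catecholamine neurons and in some Purkinje cells, was at 9.92, 10.8 and 9.07 CPM in control, 33.3, 44.8 and 10.9 in 3AP and 37.7, 39.1 and 38.3 in PLX3AP. The PLX3AP libraries agreed closely, while 3AP replicate 3 lay at the control level. Th differed from control by a log2 fold change of 1.95 (SE 0.46, adjusted p 0.29). With the 6 control and PLX3AP libraries alone edgeR called it (4.0e-05), as did DESeq2 with all 9 (0.0098). Slc6a2, the noradrenaline transporter, named after its values were seen, was at 1.57, 2.77 and 1.9 CPM in control, 1.42, 8.08 and 1.26 in 3AP and 2.80, 8.00 and 10.5 in PLX3AP (adjusted p 0.54). The list summed to 16.9 to 21.9 CPM in control, 18.1 to 66.5 in 3AP and 49.6 to 60.3 in PLX3AP. Th was the largest member of the sum in every library, so the sums mostly follow this gene.

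4 other called genes belonged to none of the lists, and all were higher. Cbx7, a subunit of the Polycomb repressive complex that binds methylated histone H3, was at 83.7, 83.6 and 84.1 CPM in control, 120, 124 and 115 in 3AP and 112, 112 and 114 in PLX3AP (1.35-fold, log2 fold change 0.43, SE 0.06, adjusted p 0.020). Both treated groups lay above control by similar amounts, and the difference between them did not pass (-0.08, SE 0.06, adjusted p 0.69). Galnt6, an enzyme that starts O-linked glycosylation, was at 12.5, 11.7 and 12.9 CPM in control, 16.8, 16.9 and 16.1 in 3AP and 17.6, 20.6 and 19.9 in PLX3AP (1.57-fold, log2 fold change 0.65, SE 0.10, adjusted p 0.038). Rab37, a small GTPase of secretory vesicles, was at 23.8, 22.5 and 24.9 CPM in control, 27.1, 29 and 29.4 in 3AP and 32.4, 35.6 and 33.1 in PLX3AP (1.42-fold, log2 fold change 0.51, SE 0.09, adjusted p 0.0496). Tprkb, a subunit of the complex that modifies transfer RNA at the base next to the anticodon, was at 94.8, 94.3 and 93.7 CPM in control and at 119, 129 and 124 in PLX3AP (1.31-fold, log2 fold change 0.39, SE 0.07, adjusted p 0.046). In each of these 4 genes the 3AP libraries also lay above all control libraries. Each call was lost when any library other than PLX3AP replicate 1 was left out, at adjusted p of 0.056 to 0.13 for Cbx7, 0.090 to 0.21 for Galnt6, 0.090 to 0.25 for Rab37 and 0.13 to 0.23 for Tprkb. On the TPM scale limma-trend called none of the 4 with a pseudocount of 1 or 0.1. The adjusted p were 0.15 and 0.13 for Cbx7, 0.18 and 0.17 for Galnt6, 0.086 and 0.082 for Rab37, and 0.50 and 0.48 for Tprkb. EdgeR with the 6 libraries alone did not call them either (0.082, 0.095, 0.11 and 0.12 in the same order). All 4 overlap a gene on the opposite strand: Cbx7 Apobec3, Galnt6 Galnt6os, Rab37 Cd300lf, and Tprkb Nat8f1 and Gm18290.

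Of the 48 gene lists, covering 871 genes of which 810 were tested, 8 held an edgeR call and 40 held none. DESeq2 made calls in 27 of the 48 lists and limma-voom in 8. In total 13 of the called genes were in a list, 12 of them lower. Lists with medians close to that of all tested genes included circadian clock (-0.01), neuronal excitability channels (0.02), glutamatergic synapse (-0.03), mural cells (0.02), endothelial cells (-0.02) and cytosolic ribosomal proteins (0.08), and edgeR and limma-voom called 0 in each. DESeq2 called 1 higher in the clock list and 1 higher in the channel list, 1 lower in the glutamatergic list and 0 in the other 3. At an unadjusted p under 0.05 these lists held 4 of 19, 3 of 25, 2 of 23, 0 of 12, 3 of 21 and 0 of 23 genes. Over all tested genes the share was 9.35%, and the clock list, with 3 higher and 1 lower, lay above it.

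**Figure D5:**
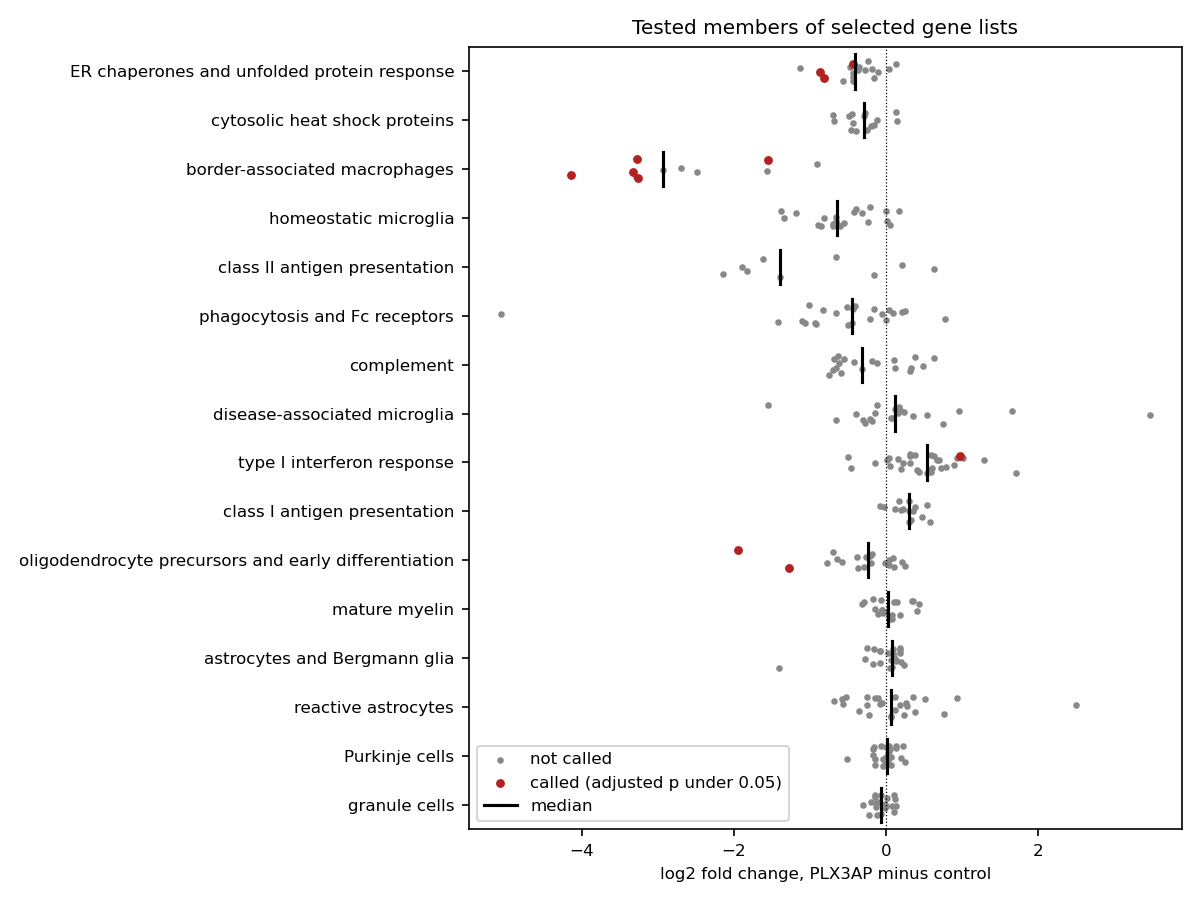
Log2 fold change, PLX3AP minus control, of each tested gene in selected lists, with called genes in red and the list median as a black line. Medians lie at -2.93 for border-associated macrophages, -0.65 for homeostatic microglia, -0.40 for ER chaperones and 0.53 for the type I interferon response, and near 0 for myelin, Purkinje and granule cell genes.

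The genes just inside the threshold were Tprkb and Rab37, at adjusted p of 0.046 and 0.0496. Just outside were Ms4a6c (0.055), Mir670hg (0.069), Lyz2 (0.070), Fabp7 (0.070) and Pf4 (0.071). In GRCm38 (mm10) coordinates from GENCODE M21, Hspa5 lies at chr2:34771970-34777547, Manf at chr9:106838312-106891979 and Gpr17 at chr18:31942997-31949636. Stab1 lies at chr14:31139013-31168641, F13a1 at chr13:36867178-37050244, Cd163 at chr6:124304656-124330527, Mrc1 at chr2:14229392-14332057 and Tnc at chr4:63959785-64047015. Of these, Manf overlaps Rbm15b on the same strand and Dcaf1 on the opposite strand, Gpr17 overlaps Lims2, Stab1 overlaps Nt5dc2, Tnc overlaps 8030451A03Rik and F13a1 overlaps Gm49144 and Gm30489, all 4 on the opposite strand. Pdia3 overlaps Catsper2 on the opposite strand. Reads of such pairs may not be told apart.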

How the data were processed

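Total RNA of mouse cerebellum was sequenced by the submitters in 9 libraries, 3 in each of 3 groups taken from the labels. The submitters' processing notes name mm10 and the tools RSEM, StringTie, HISAT2 and fastp, with which the authors made expected counts. Tool versions, the annotation and the strand setting were not given in the sources used here. Deposited tables hold expected counts, with 28.7 to 30.8% of the values above 0 not whole, and TPM, which the authors scaled to transcript length and library total. The 1884 rows without a gene name (0.526 to 0.603% of the counts in the 6 libraries compared) were left out.

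Rounded counts went into edgeR 4.0.16 (R 4.3.3), with filterByExpr, TMM (factors 0.986 to 1.02), and a robust quasi-likelihood fit of all 9 libraries with a term per group, tested on simulated data. P-values are two-sided and Benjamini-Hochberg adjusted over the 16634 tested genes, with a call at an adjusted p under 0.05. CPM are TMM-scaled and given as mean ± SD or per library in replicate order. Fold changes are those of the fit. Alternatives were DESeq2 1.42.0, limma 3.58.1 (voom, and limma-trend on log2 of TPM plus 1 or 0.1), other scaling and filters, the 6 libraries alone, the replicate number as a block, and leaving out each library.

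Named were the 10 genes called higher and the 10 called lower with the smallest p, the 4 called genes with the largest fold in each direction among those with at least 1 CPM, the called genes and the 2 most abundant uncalled genes of each list, and a fixed set (Csf1r, Csf1, Il34, Kit, Flt3, Tmem119, P2ry12, Cx3cr1, Irf7, Lcn2, Gfap, Pcp2, Calb1, Mbp and Gpr17). Other genes were named after their values were seen, and some genes that the rule covers, 1 of them called, are not reported here. The comparison, the members and the gene lists were chosen with earlier results of these data known.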

Additional observations from a re-analysis of the deposited data

How the results depend on the processing

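Counts of calls, 20 in all with 6 higher and 14 lower, moved with the method. DESeq2 called 105 (40 higher, 65 lower), edgeR with no filter beyond a count above 0 called 71 (21 and 50), and limma-trend called 9 (3 and 6) on log2(TPM + 1). Limma-voom called 3 genes higher, as did edgeR with the 6 libraries alone. All 20 genes were among the DESeq2 and the unfiltered calls, 15 among those of limma-voom, 11 among those of the 6 libraries alone and 5 among those on log2(TPM + 1). Leaving out each replicate gave 7 to 153 calls, 0 to 21 higher and 7 to 132 lower. Hspa5, Gpr17, F13a1 and Manf were called under all 15 alternatives. With the replicate number as a block edgeR called 10 genes (1 higher, 9 lower), of which 9 were among the 20. Deviations from the group mean correlated at 0.046, 0.015 and 0.093 between same-numbered control and PLX3AP libraries. Control replicates 2 and 3 correlated best with the PLX3AP library of their own number, and control replicate 1 did not. With 3 libraries per group these values cannot show whether the numbers pair the samples. Il34 (range without 1 replicate -0.16 to 0.094) changed sign on log2(TPM + 0.1) (0.00121), without control replicate 2 (0.094) and without PLX3AP replicate 1 (0.022), Flt3 (-0.032 to 0.105) without control replicate 3 (-0.032), and Vcan on log2(TPM + 1) (0.077) and log2(TPM + 0.1) (0.095). Of 1917 refits of genes that were not called, 97 passed the threshold and 1814 kept their side and direction. The cause of these shifts was not tested. Genes near 1 CPM, such as Cd48, rest on few counts.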
